A study of Mus musculus with 4 samples.

Results

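Transcripts of 10 genes at the centre of NF-kB signalling were followed in the livers of mice after hepatectomy, the surgical removal of liver tissue. They were the Rel subunits Nfkb1, Nfkb2, Rela and Relb, the IkB proteins Nfkbia, Nfkbiz and Bcl3, the feedback inhibitor Tnfaip3, and the targets Icam1 and Birc3. The genes were chosen by symbol, with earlier results of these data known, and all 10 were among the 24421 symbols of the deposited table. Both groups had undergone hepatectomy and received fibrin gel. In 2 libraries, called gelADSC, the gel carried embedded ADSC (adipose-derived stem cells), and 2 control libraries came from livers treated with the gel alone. The comparison asks how liver RNA differed when the gel held ADSC. The labels used here name no genotype, strain, age, time after surgery or source of the ADSC, and they do not say whether each library is a different mouse. The p-values therefore measure the spread between these libraries, which may be technical.

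NF-kB proteins are dimers of Rel subunits that IkB proteins hold inactive in the cytoplasm. Ligands such as TNF and interleukin 1 activate the IkB kinase complex, IkB is degraded, and the freed dimers enter the nucleus. A slower branch converts the Nfkb2 precursor, which pairs with Relb. Dimers switch on their own inhibitors as well as adhesion molecules and survival genes, so Nfkbia, Tnfaip3, Nfkb2, Relb, Bcl3, Icam1 and Birc3 are widely used as readouts of the pathway. In liver, NF-kB is known for its early activation after partial hepatectomy, driven by TNF from Kupffer cells, the resident macrophages, and for protecting hepatocytes from death.

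Promoter sequence shows the kind of DNA element that links these genes to the pathway. The RefSeq promoter table (GRCm38.p6) held windows of 250 bases before and 50 bases after the transcription start for 7 of the 10 genes. The kappaB consensus was written as GGGRNNYYCC, where R is A or G, Y is C or T and N is any base. Windows were searched on both strands for this strict form of the decamer that NF-kB dimers recognise. It occurred in 6 of the 10 windows of these genes, which belong to Nfkb2, Tnfaip3, Nfkbia and Bcl3, and in 8.46% of all 32851 windows in the table. Windows of the same gene can overlap, and the last 2 of the 3 Nfkb2 windows overlap and share a match. The genes were chosen as members and targets of the pathway, so these shares do not test for an excess. A match is a description of letters and not a binding site. The upstream 250 bases are shown for the 3 genes with a match before the start, and these windows and the motif were chosen with the expression values known. They are written 5′ to 3′ on the gene's strand, and capitals mark matches on either strand. The windows are chr19:46304487-46304736 on the plus strand for the first of 3 Nfkb2 windows, chr10:19015411-19015660 on the minus strand for the first of 2 Tnfaip3 windows, and chr12:55492648-55492897 on the minus strand for Nfkbia.
Nfkb2: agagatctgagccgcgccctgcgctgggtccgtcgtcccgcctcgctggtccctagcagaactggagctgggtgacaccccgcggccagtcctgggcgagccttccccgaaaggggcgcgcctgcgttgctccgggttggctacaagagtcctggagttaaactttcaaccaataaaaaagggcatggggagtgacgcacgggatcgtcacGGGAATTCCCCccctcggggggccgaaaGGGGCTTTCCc
Tnfaip3: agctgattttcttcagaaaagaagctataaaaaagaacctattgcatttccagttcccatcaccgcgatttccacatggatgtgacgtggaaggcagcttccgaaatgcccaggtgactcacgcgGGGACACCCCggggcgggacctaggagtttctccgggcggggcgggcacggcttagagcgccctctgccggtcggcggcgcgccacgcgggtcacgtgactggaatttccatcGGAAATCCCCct
Nfkbia: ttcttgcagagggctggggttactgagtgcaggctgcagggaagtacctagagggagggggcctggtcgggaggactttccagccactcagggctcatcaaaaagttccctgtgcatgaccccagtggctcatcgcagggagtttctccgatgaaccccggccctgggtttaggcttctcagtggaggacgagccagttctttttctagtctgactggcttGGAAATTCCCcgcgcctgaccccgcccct
The Nfkb2 window ends in a cluster of matches next to the start, the Tnfaip3 window holds a match near its middle and another next to the start, and the Nfkbia window holds a single match. The Bcl3 match lay just after its start. No match to this strict form was found in the single windows of Rela, Icam1 and Birc3. Variants of it were not searched for, so these windows cannot be said to lack a kappaB element. The Icam1 window, for example, holds TGGAAATTCC, which departs from the strict form only in its first letter.

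Values are FPKM, that is, fragments relative to transcript length and to library size. Depth inferred from the steps of low values was roughly 20100000 to 24400000 reads in the gelADSC libraries and 18100000 to 19900000 reads in the controls. Genes averaging at least 1 FPKM were tested with limma on log2(FPKM + 1), and a gene was called at a Benjamini-Hochberg adjusted p under 0.05 over all 11070 tested genes. Each log2 change is gelADSC minus control, and it understates the change of low genes. Over all tested genes the median of these changes was -0.25, so that a gene of average behaviour already read lower in gelADSC. Among all tested genes 6.92% were called higher and 17.5% lower, and the groups did not overlap in the lower direction for 50.5%. After median ratio scaling, which removes the shift, 8.6% were called higher and 8.42% lower. Calls in the higher direction made up 28.3% of all calls as deposited, 50.5% after median ratio scaling and 48.2% after quantile normalization.

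Most of the 10 transcripts were lower in gelADSC livers, and 7 fell, namely Nfkb2, Relb, Tnfaip3, Birc3, Rela, Bcl3 and Nfkbia, beside 17.5% of all tested genes called lower. By limma 0 were called higher, and at an unadjusted p under 0.05 the counts were 9 lower and 0 higher. At that unadjusted cutoff 3270 of all 11070 tested genes were lower and 1148 higher. Unadjusted counts of other lists, given below, stand beside these. All 10 read lower in both gelADSC libraries than in either control, where 50.5% of all tested genes did so, and all 10 lay below the median change of all genes. With median ratio scaling 1 of them, Nfkb2, was called. Their median log2 change was -0.78, or -0.53 relative to that median. The size was uneven: Nfkb2, Relb and Tnfaip3 averaged between 0.255 and 0.289 times their control level, while Icam1 averaged 0.778 times.

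**Figure D1:**
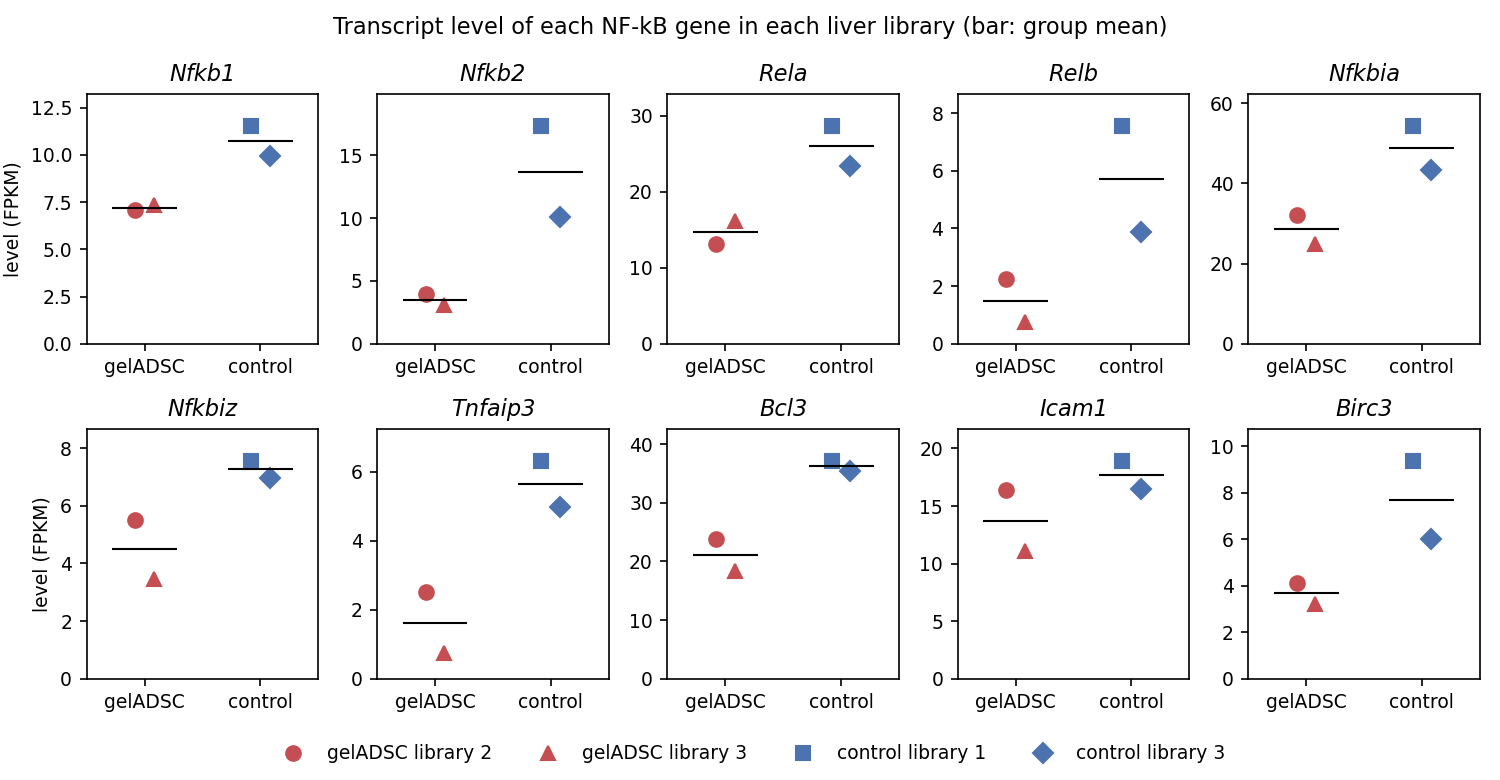
Level of each of the 10 genes (FPKM, linear axis from 0) in the gelADSC libraries (red, left) and the control libraries (blue, right), with a bar at the group mean of 2 libraries. Every red point lies below every blue point of its panel, with the widest separation for Nfkb2 (2.56 times between the lowest control and the highest gelADSC value) and nearly none for Icam1.

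Both subunits of the slower branch fell. Nfkb2, which encodes the p100 precursor of p52, read 3.93 and 3.06 FPKM in gelADSC libraries 2 and 3, against 17.3 and 10.1 FPKM in control libraries 1 and 3. Both gelADSC libraries were low, and the lowest control was 2.56 times the highest gelADSC value. Its means were 3.50 ± 0.618 FPKM in gelADSC and 13.7 ± 5.13 FPKM in control (SD, n = 2 each), with a log2 change of -1.67 (SE 0.27, limma adjusted p = 0.00398). Only 2.21% of tested genes had a lower log2 change. Relb, the partner of p52, read 2.25 and 0.744 FPKM in the gelADSC libraries and 7.55 and 3.87 FPKM in the controls. The groups did not overlap, but the libraries within each group differed by 0.90 in gelADSC and 0.81 in control on the log2 scale. The log2 change was -1.44 (SE 0.36, limma adjusted p = 0.0239). The order of Nfkb2, Relb and Tnfaip3 by log2 change was not stable, since without gelADSC library 2 Tnfaip3 had the lowest value (-1.92, against -1.89 for Relb and -1.81 for Nfkb2).

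The subunits of the classical dimer had smaller log2 changes. Rela, which encodes the transactivating p65 subunit, read 13.2 and 16.1 FPKM in gelADSC and 28.7 and 23.4 FPKM in control. It averaged 14.7 ± 2.096 FPKM in gelADSC and 26.0 ± 3.68 FPKM in control (SD, n = 2 each), with a log2 change of -0.79 (SE 0.21, limma adjusted p = 0.0271). Both gelADSC libraries lay well below both controls. Nfkb1, which encodes the p105 precursor of p50, read 7.11 and 7.33 FPKM in gelADSC and 11.5 and 9.92 FPKM in control. Its groups did not overlap, yet its log2 change of -0.51 (SE 0.20, limma adjusted p = 0.0889) did not pass the threshold. Relative to the median of all genes that change was -0.26.

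Because a ratio between genes of the same library does not depend on how libraries are scaled, ratios show which members moved unequally. The ratio of Nfkb2 to Nfkb1 was 0.554 and 0.418 in gelADSC libraries 2 and 3 and 1.50 and 1.02 in control libraries 1 and 3. Nfkb2 thus read above Nfkb1 in both controls and well below it in both gelADSC libraries. The sum of Nfkb2 and Relb over the sum of Nfkb1 and Rela was 0.305 and 0.162 in gelADSC and 0.619 and 0.418 in control, again without overlap. Relb over Rela alone did overlap, with 0.171 and 0.0461 in gelADSC and 0.263 and 0.165 in control. With 2 libraries a group the smallest two-sided p of an exact permutation test is 0.333, so these ratios are descriptions.

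**Figure D2:**
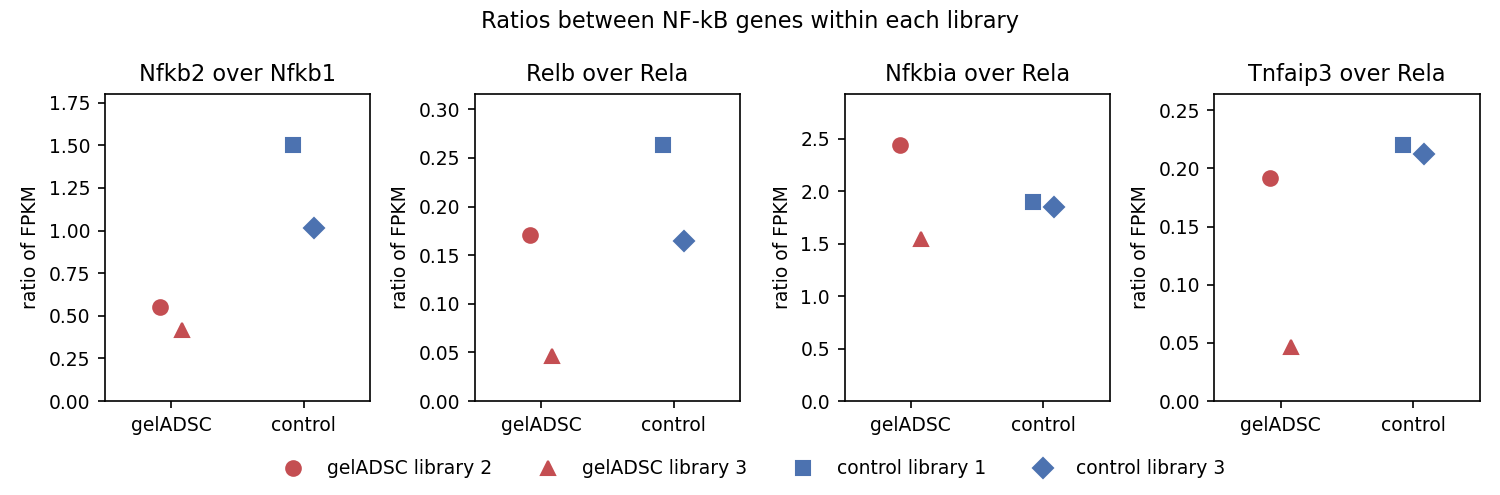
Ratios of FPKM between pairs of members within each library (linear axes from 0), with gelADSC libraries in red on the left and control libraries in blue on the right. Nfkb2 over Nfkb1 lies at 0.554 and 0.418 in gelADSC and at 1.50 and 1.02 in control, whereas Nfkbia over Rela overlaps between the groups.

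The inhibitors of the pathway were lower as well, to different degrees. Nfkbia, the IkB-alpha protein that NF-kB induces to switch itself off, read 32.2 and 24.9 FPKM in gelADSC and 54.3 and 43.5 FPKM in control. It was the most abundant of the 10 transcripts in both groups. Its log2 change was -0.76 (SE 0.21, limma adjusted p = 0.0345), close to that of Rela. The ratio of Nfkbia to Rela was 2.44 and 1.54 in gelADSC and 1.90 and 1.85 in control. The control ratios thus lay between those of the gelADSC libraries. The ratio thus did not differ between the groups beyond the spread of the libraries.

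Tnfaip3 encodes A20, a ubiquitin-editing enzyme that stops signalling upstream of the kinase complex. It read 2.52 and 0.745 FPKM in gelADSC libraries 2 and 3 and 6.31 and 4.99 FPKM in the controls. Library 3 was far lower than library 2, by 1.01 on the log2 scale, the widest gap between libraries of a group among the 10 genes. The log2 change was -1.42 (SE 0.33, limma adjusted p = 0.018), and without gelADSC library 3 it was -0.91 with an adjusted p of 0.0540. At the inferred depth and the length of its longest GENCODE M21 transcript, the value in library 3 stands for about 93 reads, and that of Relb in the same library for about 49, the fewest of any member.

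Both atypical IkB proteins of the set act in the nucleus. Bcl3, a coactivator of p50 and p52 dimers, read 23.8 and 18.3 FPKM in gelADSC and 37.1 and 35.5 FPKM in control. The controls were close together and both gelADSC libraries clearly lower, with a log2 change of -0.77 (SE 0.20, limma adjusted p = 0.0273). Nfkbiz, the IkB-zeta protein induced by interleukin 1 and Toll-like receptor signals, read 5.52 and 3.46 FPKM in gelADSC and 7.54 and 6.98 FPKM in control. Its log2 change of -0.62 (SE 0.24, limma adjusted p = 0.0909) did not pass the threshold, and gelADSC library 2 lay nearer to the controls than library 3. Without gelADSC library 3 the log2 change was -0.34.

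The chosen targets differed from each other. Birc3, the cIAP2 ubiquitin ligase that protects cells from TNF-induced death, read 4.11 and 3.23 FPKM in gelADSC and 9.35 and 6.01 FPKM in control, and fell with a log2 change of -0.87 (SE 0.25, limma adjusted p = 0.036). Icam1, an adhesion molecule that binds leukocytes, read 16.4 and 11.1 FPKM in gelADSC and 18.9 and 16.4 FPKM in control. Its groups touched, and the log2 change of -0.36 (SE 0.23, limma adjusted p = 0.269) did not pass the threshold. It was -0.10 without gelADSC library 3 and -0.62 without gelADSC library 2. Icam1 lay near the middle of all tested genes, with 40.5% of them lower in log2 change.

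Levels kept much the same order in both groups. Nfkbia, Bcl3 and Rela led in that sequence in each, and Tnfaip3 and Relb filled the lowest places. Nfkb2 was the exception, since it ranked 8 of 10 in gelADSC at 3.50 FPKM and 5 of 10 in control at 13.7 FPKM. Among neighbours in the order, the ranges of Rela and Icam1, of Nfkbiz, Birc3 and Nfkb2, and of Tnfaip3 and Relb overlapped in gelADSC. In control the overlaps were between Icam1 and Nfkb2, Nfkb2 and Nfkb1, Birc3 and Nfkbiz, Nfkbiz and Relb, and Relb and Tnfaip3. Within-library percentiles among tested genes, which no scaling alters, placed Nfkb2 at 34.5 and 24.5 in gelADSC and at 67.3 and 57.3 in control. For Rela they were 69.6 and 72.2 in gelADSC and 78.6 and 77.2 in control. Icam1 overlapped on this scale, at 74.2 and 62.3 in gelADSC and 69.4 and 69.8 in control.

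Most calls depended on how the libraries were scaled. With median ratio scaling all 10 log2 changes stayed negative, but 1 gene was called, Nfkb2, with a log2 change of -1.42 and a limma adjusted p of 0.0272. Rela stood just outside at -0.51 (0.0521), and the other calls were lost with adjusted p values up to 0.154. Scaled log2 changes were -0.48 for Bcl3 and -0.47 for Nfkbia, and the scaled values of Nfkbiz and Icam1 overlapped between the groups. The groups of 8 members still did not overlap, beside 35% of all tested genes in that direction. Quantile normalization also left 1 call, Nfkb2 (limma adjusted p = 0.0271), beside 9.03% of all tested genes called lower, and so did dropping the filter on low values (0.0451), beside 4.16%.

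**Figure D3:**
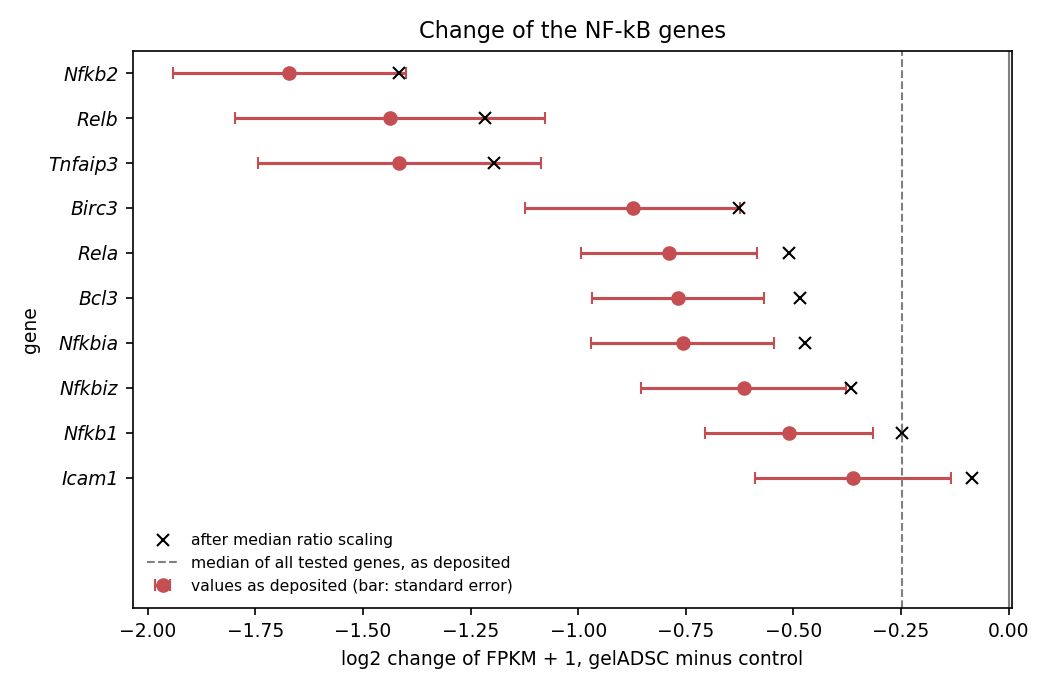
Log2 change of FPKM + 1, gelADSC minus control, for the 10 genes with standard errors of the limma fit (red points, values as deposited) and after median ratio scaling (crosses); the dashed line marks the median of all tested genes at -0.25. Every red point lies left of the dashed line, from -1.67 for Nfkb2 to -0.36 for Icam1, and scaling moves each towards 0.

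Most calls also depended on single libraries, and over all tested genes too fewer were called lower with any library left out. Without control library 1, in which all 10 genes read higher than in control library 3, Nfkb2 alone was called (limma adjusted p = 0.0493) and the other calls had adjusted p values of 0.147 to 0.220. Without control library 3 the calls of Nfkbia, Tnfaip3 and Bcl3 were lost (0.0567 to 0.0769), and without gelADSC library 2 that of Rela (0.173). Without gelADSC library 3 those of Nfkbia, Tnfaip3, Bcl3 and Birc3 were lost (0.0540 to 0.193). In these fits the lone library of a group is assumed to vary like the other group. Nfkb2 was called in all 10 alternative settings, with log2 changes of -2.03 to -1.11.

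The gelADSC libraries also differed in a way that all genes did not share, whereas most tested genes shared the difference between the control libraries. In gelADSC library 3, 8 of the 10 genes read lower than in library 2, with a median difference of -0.36, whereas 66.8% of all tested genes read higher there and their median difference was 0.10. The exceptions were Rela and Nfkb1. In control library 1 all 10 read higher than in control library 3, by a median of 0.28, and so did 76.8% of all tested genes, by a median of 0.21.

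Markers of cells that carry much of the liver's NF-kB activity were read beside these values, since in bulk tissue fewer cells of a type and less RNA per cell cannot be told apart. Summed levels of 12 Kupffer cell and macrophage markers were 608 and 331 FPKM in gelADSC libraries 2 and 3 and 504 and 547 FPKM in control libraries 1 and 3. The groups overlapped, 1 of the 12 fell and 0 were called higher by limma, with 2 lower and 2 higher at an unadjusted p under 0.05. The marker that fell was Cd68, a lysosomal glycoprotein (log2 change -2.42, limma adjusted p = 0.000756), while the complement genes C1qa, C1qb and C1qc had log2 changes of -0.02, -0.10 and -0.02. Neutrophil markers summed to 74.8 and 26.4 FPKM in gelADSC and 75.5 and 69.0 FPKM in control, with 1 of 4 tested lower, and monocyte markers to 430 and 394 FPKM in gelADSC and 333 and 497 FPKM in control, with 2 of 7 lower. Fn1, fibronectin, which hepatocytes also make, carried most of the monocyte sum. Without it the monocyte markers summed to 43.7 and 17.3 FPKM in gelADSC and 66.3 and 93.4 FPKM in control, lower in both gelADSC libraries. Macrophage and neutrophil sums, and the monocyte sum without Fn1, were lowest in gelADSC library 3, the library with the lowest Relb, Tnfaip3, Nfkbiz and Icam1. Their part in these results was not tested. The counts of each marker list, here and below, stand beside 17.5% of all tested genes called lower and 6.92% higher.

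Other cell types gave no common picture. Endothelial markers summed to 125 and 116 FPKM in gelADSC and 126 and 115 FPKM in control, with 2 of 10 higher and 1 lower. Without Clec4g, the most abundant of them, they summed to 85.4 and 70.1 FPKM in gelADSC and 98.3 and 87.1 FPKM in control. Of 10 stellate cell and fibroblast markers 3 rose and 0 fell (0 lower also at an unadjusted p under 0.05, limma), and their sums overlapped at 146 and 121 FPKM in gelADSC and 162 and 76.7 FPKM in control. Bile duct markers summed to 64.1 and 55.5 FPKM in gelADSC and 179 and 320 FPKM in control, mostly through Spp1, osteopontin, and 2 of 6 tested fell. Without Spp1 they summed to 11.98 and 11.98 FPKM in gelADSC and 28.9 and 22.1 FPKM in control, still without overlap. Lymphocyte markers stayed under 1 FPKM in every library, with sums of 2.94 and 3.61 FPKM in gelADSC and 0.312 and 0.3298 FPKM in control. Markers of adipose-derived stem cells and adipocytes summed to 70.1 and 39.1 FPKM in gelADSC and 151 and 83.5 FPKM in control, with 2 of 5 tested lower. These were Fabp4, an adipocyte fatty acid carrier, and Nt5e, and without Fabp4 the sums overlapped at 31.6 and 26.6 FPKM in gelADSC and 52.8 and 31.1 FPKM in control. Thy1, a surface marker of the stem cells, read 0.992 and 0.830 FPKM in gelADSC and 0.665 and 0.0637 FPKM in control and was not tested. Other markers of this list did not separate in that direction. Eng and Nt5e read lower in both gelADSC libraries than in either control, with log2 changes of -0.50 (limma adjusted p = 0.146) and -1.30 (0.0266). Cd34 and Pdgfra overlapped between the groups, with log2 changes of 0.65 (limma adjusted p = 0.162) and 0.16 (0.694). Adipoq was listed at 0 in gelADSC library 3 and control library 3. Hepatocyte markers were the most abundant of all, with Alb, serum albumin, at 22023 and 38330 FPKM in gelADSC and 28129 and 31907 FPKM in control. Of 10 hepatocyte markers 1 rose and 0 fell by limma (3 higher and 1 lower at an unadjusted p under 0.05). The one that rose was Serpina1c, a protease inhibitor, with 1610 and 1504 FPKM in gelADSC and 719 and 739 FPKM in control (limma adjusted p = 0.00867). The part of these cell types in the results was not tested either.

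Beyond the 10 genes, most of the calls were receptors and targets. Of 103 other pathway genes 75 were tested, of which 16 fell (21.3%, beside 17.5% of all tested genes) and 2 rose. Their median log2 change was -0.40 against -0.25 for all tested genes. With median ratio scaling 9 fell and 2 rose.

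Of 12 ligand transcripts 5 were high enough to be tested, and the highest value among them was 10.7 FPKM. Tnf, the cytokine that starts the response, read 0.446 and 0.0601 FPKM in gelADSC and 0.607 and 0.601 FPKM in control, too low to be tested. Il1b, interleukin 1 beta, read 3.52 and 1.38 FPKM in gelADSC and 1.21 and 1.62 FPKM in control, and its groups overlapped (limma adjusted p = 0.321). Of 5 tested ligands 0 were called by limma in either direction, and 0 at an unadjusted p under 0.05.

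Among the receptors, the cell surface entry points of the pathway, 5 of 11 tested fell and 1 rose. These were 45.5% and 9.09%, beside 17.5% and 6.92% of all tested genes. Tnfrsf12a, the receptor of the cytokine TWEAK, which feeds the slower branch, read 12.6 and 19.1 FPKM in gelADSC and 367 and 220 FPKM in control (log2 change -4.11, SE 0.29, limma adjusted p = 0.000112). Cd14, a coreceptor for lipopolysaccharide, read 4.19 and 1.58 FPKM in gelADSC and 69.6 and 37.5 FPKM in control (log2 change -3.83, SE 0.37, limma adjusted p = 0.000476). Both were far lower in each gelADSC library. The interleukin 1 receptor chains went opposite ways. Il1r1, the ligand-binding chain, read 15.6 and 20.2 FPKM in gelADSC and 37.8 and 43.3 FPKM in control (log2 change -1.14, SE 0.21, limma adjusted p = 0.0063), whereas Il1rap, the accessory chain, read 10.7 and 10.9 FPKM in gelADSC and 3.51 and 3.63 FPKM in control (log2 change 1.37, SE 0.19, limma adjusted p = 0.00226). These directions held with median ratio scaling and quantile normalization. Without control library 1 the adjusted p of Il1r1 was 0.0556.

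The kinase layer held 1 call. Among 25 tested genes from adaptors to kinases 1 fell and 0 rose by limma (6 lower and 0 higher at an unadjusted p under 0.05), and their median log2 change of -0.32 lay near the median of all genes. The gene that fell was Irak1, a kinase of the interleukin 1 receptor complex, with 17.1 and 21.0 FPKM in gelADSC and 33.1 and 28.6 FPKM in control (limma adjusted p = 0.041), a call lost in 8 of 10 alternatives. The IkB kinase subunits did not pass the threshold. Chuk read 36.3 and 36.4 FPKM in gelADSC and 52.3 and 45.3 FPKM in control (limma adjusted p = 0.134), Ikbkb 13.9 and 15.1 FPKM in gelADSC and 25.1 and 19.1 FPKM in control (limma adjusted p = 0.0769), and Ikbkg averaged 12.3 ± 1.82 FPKM in gelADSC and 16.7 ± 1.83 FPKM in control (SD, n = 2 each, limma adjusted p = 0.159).

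Of the remaining Rel and IkB genes 2 were tested and 1 fell. This was Nfkbib, IkB-beta, with 9.33 and 9.65 FPKM in gelADSC and 16.5 and 14.0 FPKM in control (log2 change -0.62, limma adjusted p = 0.0479), a call lost in 9 of 10 alternatives. Of 12 other negative regulators 2 fell and 0 rose by limma, and at an unadjusted p under 0.05 these counts were 4 and 0. The 2 that fell were 16.7%, near the 17.5% of all tested genes called lower. Tnip1, which encodes the A20 partner ABIN-1, read 4.50 and 4.13 FPKM in gelADSC and 15.3 and 9.40 FPKM in control (log2 change -1.29, limma adjusted p = 0.00853), and Il1r2, a decoy receptor, read 0.427 and 0.111 FPKM in gelADSC and 2.87 and 2.42 FPKM in control (log2 change -1.53, limma adjusted p = 0.00352). The call of Tnip1 was lost without control library 1 (limma adjusted p = 0.0694) and without a filter on low values (0.0595).

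Of 20 tested targets outside the 10 genes, 7 fell and 1 rose. These were 35% and 5%, beside 17.5% and 6.92% of all tested genes. Ier3, an early gene of stress and survival, read 1.88 and 1.41 FPKM in gelADSC and 48.0 and 50.6 FPKM in control (log2 change -4.25, SE 0.20, limma adjusted p = 1.34e-05). Ccl2, a chemokine that attracts monocytes, read 3.71 and 0.739 FPKM in gelADSC and 34.4 and 28.3 FPKM in control (log2 change -3.49, SE 0.40, limma adjusted p = 0.000936), and without control library 1 its adjusted p was 0.0505. Cxcl2, a chemokine of neutrophils, and Bcl2l1, the survival protein Bcl-xL, fell with log2 changes of -1.90 and -1.97. Il6, the cytokine of the priming phase, read 0.0377 and 0 FPKM in gelADSC and 0.231 and 0.0508 FPKM in control and was not tested. The log2 changes of Ier3, Ccl2, Bcl2l1 and Cxcl2 were each lower than that of any of the 10 genes.

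**Figure D4:**
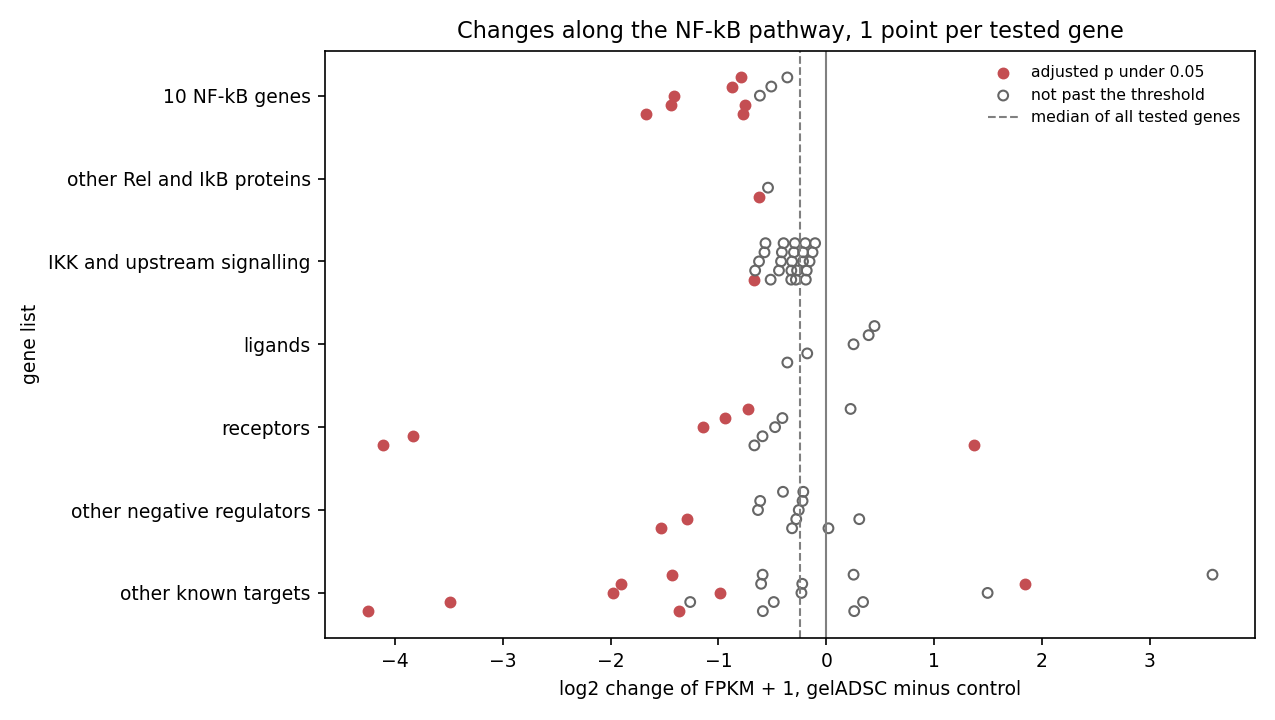
Log2 change of FPKM + 1, gelADSC minus control, for each tested gene of the 10 NF-kB genes and of 6 lists of other pathway genes; filled points passed an adjusted p of 0.05 and vertical offsets within a list carry no meaning. The 10 genes all lie left of the dashed median of all tested genes, the kinase layer clusters around it, and the most negative values belong to Ier3, Tnfrsf12a and Cd14.

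Many genes shared the average pattern of the 10. By Euclidean distance between centred log2 profiles over the 4 libraries, the nearest tested genes outside the set were Trpv2, an ion channel (distance 0.0347), Adam15, a membrane metalloprotease (0.0430), Elovl6, a fatty acid elongase (0.0494), Esam, an endothelial adhesion molecule (0.0522), and 1700007L15Rik (0.0671). Of the members Nfkbia lay closest to the average (0.167) and 28 other genes lay closer than it, while Nfkb2 was the most distant (0.800).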

How the data were processed

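RNA of 4 liver libraries was measured after RNeasy extraction and a TruSeq stranded mRNA library kit, per the labels' protocols. The authors deposited 1 value per mouse gene symbol, taken here as FPKM because Cufflinks 2.2.1 is named, with Trimmomatic 0.38 and TopHat2 2.1.1, in the submitters' processing notes. The values are also not whole and their steps depend on the gene. The only build in those notes is the human hg19, at odds with mouse symbols, so the genome build and annotation behind the values are unknown and gene coordinates are not printed. RefSeq promoter windows carry their own build. Column numbers differ from the numbers in the sample titles, so libraries are called by the column. Nothing was used to pair them.

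Relative depth came from ratios of values under 0.2 FPKM, of which 87.0% to 87.8% were whole-number ratios up to 10 within 0.001. Absolute depth came from single-transcript genes in GENCODE M21 (106 of 582 in the most frequent bin of 1% width) and is approximate, as are read numbers derived from it. Values were used as deposited, as log2(FPKM + 1), for genes averaging at least 1 FPKM. They were tested with limma 3.58.1 in R 4.3.3 (trend, two-sided), and the code was tested on simulated data. Count tests were not used, since the values are not counts.

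Alternatives were pseudocounts of 0.1 and 5, no filter, median ratio scaling, quantile normalization, no trend and leaving out each library. The 10 genes, the pathway lists and the markers were chosen with earlier results of these data known. Named pathway genes are Tnf, Il1b, Il6 and the IkB kinase subunits, plus up to 4 called genes per list with the largest change. Cd68, C1qa, C1qb, C1qc, Spp1, Adipoq, Alb, Fn1, Clec4g, Fabp4, Nt5e, Thy1 and Serpina1c, and the genes of the closing section, were named after their values were seen. So were Eng, Cd34, Pdgfra, Clec4f and Vsig4. Of the marker symbols, Ly6g was not matched.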

Additional observations from a re-analysis of the deposited data

How the results depend on the processing

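The number of the 10 genes called lower was 7 as reported. It was 1 under quantile normalization, under median ratio scaling and without a filter on low values, and 1 to 6 when single libraries were left out. With pseudocounts of 0.1 or 5 or without the trend it stayed at 7. No log2 change of the 10 genes changed sign in any of the 10 alternatives, and Nfkb2 was called in each. With a pseudocount of 5 the log2 changes shrank to -1.11 for Nfkb2, -0.71 for Relb, -0.69 for Tnfaip3 and -0.54 for Birc3, as the larger constant makes them. For the other pathway genes, the number called lower (16) was 8 without a filter, 9 under either scaling and 5 to 17 with a library left out. The number called higher (2) was 1 with no filter and 1 to 5 with a library left out. Over all tested genes, 766 were higher and 1936 lower. The lower count was 999 under quantile normalization, 932 under median ratio scaling and 730 without a filter. With a library left out the counts ran from 303 to 775 higher and from 331 to 1708 lower. With a library left out, the log2 change of Il1b ran from -0.014 (without gelADSC library 2) to 0.91, and that of Cxcl10 from -1.28 to 0.30 (without gelADSC library 3), so that each changed sign in 1 such fit. With no filter 17563 genes entered the adjustment. The cause of the other losses was not tested. No paired analysis was possible because the columns of the groups share only the number 3. Depth limits Relb and Tnfaip3 most, and Tnf and Il6 were too low to test.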

Other observations

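Chemokines and acute phase genes among the listed NF-kB targets did not share 1 pattern. They are named here after their values were seen. Ccl5, a chemokine of T cells, rose and read 6.87 and 1.96 FPKM in gelADSC libraries 2 and 3, against 0.283 and 0.416 FPKM in control libraries 1 and 3. Its log2 change was 1.84 (limma adjusted p = 0.0149). That call was lost in 5 of 9 alternatives, among them median ratio scaling (0.0662) and without control library 1 (0.165) or control library 3 (0.0878). Cxcl9, an interferon-induced chemokine, read 6.81 and 1.196 FPKM in gelADSC and 0.225 and 0.760 FPKM in control, and did not pass the threshold (log2 change 1.50, limma adjusted p = 0.0648). Without gelADSC library 3 its log2 change was 2.41. Cxcl1, a chemokine of neutrophils, fell and read 54.9 and 21.4 FPKM in gelADSC and 115 and 70.7 FPKM in control (log2 change -1.37, limma adjusted p = 0.0409), a call lost in 7 of 10 alternatives. Without control library 1 its adjusted p was 0.322, without control library 3 it was 0.0920, and without gelADSC library 3 it was 0.0917 with a log2 change of -0.71. Cxcl10, another interferon-induced chemokine, read 6.30 and 1.44 FPKM in gelADSC and 5.02 and 4.82 FPKM in control (limma adjusted p = 0.432). All 4 were lower in gelADSC library 3 than in library 2.

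Saa3, an acute phase serum amyloid, stood out in a single library. It read 1867 FPKM in gelADSC library 2 and 14.7 FPKM in gelADSC library 3, against 15.7 and 11.2 FPKM in the controls, and did not pass the threshold (log2 change 3.58, limma adjusted p = 0.151). Without gelADSC library 2 its log2 change was 0.13. Lcn2, an iron-scavenging acute phase protein, read 2225 and 726 FPKM in gelADSC and 2707 and 3433 FPKM in control (log2 change -1.26, limma adjusted p = 0.0779). Without gelADSC library 2 its log2 change was -2.07, and without gelADSC library 3 it was -0.45. In gelADSC library 2, which held the high Saa3 value, the 10 NF-kB genes read lower than in both controls as deposited. With median ratio scaling this did not hold for Icam1, at 18.96 scaled FPKM there and 15.7 and 16.2 in the controls, or for Nfkbiz, at 6.38 scaled FPKM there and 6.26 and 6.86 in the controls. The reason for the Saa3 value was not tested.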
